A study of Mus musculus with 12 samples.

Results

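The RNP pool, the light part of a sucrose gradient that holds mRNA not loaded with many ribosomes, was compared between *Lsm14b*-KO and WT oocytes. It was chosen by the sample labels and consists of 6 of the 12 libraries of the series, 3 WT and 3 KO. The other 6 libraries hold the polysome pool, fractions 11 to 28 of the gradient. Germinal vesicle (GV) stage oocytes came from 3-week-old female mice on the C57BL/6J background, 46 h after injection of 5 IU of PMSG, a hormone that brings follicles to full growth. Lysates were spun on a sucrose gradient, and fractions 1 to 10 were pooled as the RNP pool. The control mice are labelled only as WT, and KO mice were homozygous for the *Lsm14b* tm1a(KOMP)Mbp allele, a reporter-tagged knockout-first insertion carried in the germline. The labels do not say that replicates came from separate animals or gradients, so p-values measure the spread between these libraries, which may be technical. A single KO allele was used. The labelled cell type is oocyte, and all 15 oocyte markers looked up, including *Gdf9*, *Zp3* and *Ooep*, were above 0 in the RNP pool.

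A fully grown oocyte is transcriptionally silent and lives on mRNA made during growth. Much of that mRNA is kept untranslated in ribonucleoprotein particles with short poly(A) tails, and is later either recruited to ribosomes or destroyed during maturation. LSM14 proteins belong to the Sm-like family and work with the helicase DDX6 and the eIF4E-binding protein 4E-T in repression and storage. LSM14B is the member enriched in oocytes, and LSM14A is its widely expressed relative.

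RNA was amplified by Smart-seq2, a method for very small samples, and read in pairs of 150 bp. Levels are given in FPKM (fragments per kilobase of transcript per M mapped fragments, M meaning mega) as the authors calculated them, and changes are KO minus WT on the scale of log2(FPKM + 1), which understates the change of weakly expressed genes. In 114 to 203 genes per library, low FPKM values lay near steps of whole fragments, from which 6.41 to 7.41 M fragments per library were estimated. The step size was sought within a fixed range, so these are rough estimates. Replicates correlated across genes at a Pearson r of 0.903 to 0.929 in WT and 0.959 to 0.962 in KO. WT replicates 2 and 3 held 11282 and 11270 genes above 0, against 12487 to 12720 in the other 4 libraries. FPKM is a share of the pool, so less RNA per oocyte, fewer oocytes and a transfer of mRNA between pools cannot be told apart here. Markers of other cell types were examined in the same libraries. The 10 theca and stroma markers summed to between 0.773 and 1.36 FPKM in WT and to between 0.291 and 0.588 in KO, and the 11 blood and macrophage markers to at most 3.61 FPKM in any library. The 6 endothelial markers summed to between 25.8 and 42.5 FPKM in WT and to between 24.8 and 27.99 in KO, most of it *Pecam1*, while *Kdr* and *Emcn* were listed at 0. The 16 granulosa and cumulus cell markers summed to between 46.5 and 56.2 FPKM in WT and to between 64.2 and 90.8 in KO, with no overlap, and 1 of the 5 that passed the filter was called. The 15 oocyte markers summed to between 6070.2 and 6349.8 FPKM in WT and to between 8117 and 8374 in KO, also without overlap, with 8 called higher and 1 lower. Of the granulosa markers, *Cdh2* had a mean of 19.8 FPKM over the 6 libraries and was not called (change 0.67, limma adjusted p = 0.135). *Inha* (inhibin alpha) rose from 0, 0.240 and 0 FPKM in WT to 11.04, 6.03 and 3.80 in KO, and *Ptx3* and *Tnfaip6* were listed at 0 in all 6 libraries. The part of attached granulosa cells in the results below was not tested.

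The loss of LSM14B was accompanied by changes across about 1 in 5 of the RNP transcripts measured. Of 9931 genes with at least 1 FPKM in at least 3 of the 6 libraries, 20.7% were called at a limma adjusted p under 0.05 (Benjamini-Hochberg), 10.5% higher and 10.2% lower in KO. After median rescaling 1239 were higher and 934 lower. All 3 KO libraries lay above all 3 WT libraries for 20.7% of the genes tested and below them for 18.4%. The falls were larger than the rises. A change of -1 or below was found for 677 of the genes called lower, while a change of 1 or above was found for 493 of those called higher, and past 2 the numbers were 174 and 97. Without KO replicate 1, 2 or 3 the total dropped from 2057 to 1255, 1259 and 1298 genes, and the genes called higher dropped from 1044 to 548, 538 and 555.

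Calls were not spread evenly over expression levels. Among the 819 genes with a mean above 100 FPKM over the 6 libraries, 33.8% were called higher and 18.4% lower. Among the 1778 genes between 20 and 50 FPKM the balance was the other way, with 12% higher and 17% lower. Below 5 FPKM, 4.30% were higher and 4.21% lower. Between 50 and 100 FPKM 20.8% were higher and 14.8% lower. Both shares were largest above 100 FPKM, and only from 5 to 50 FPKM were falls the more frequent. The median change of all genes tested was 0.05, and it was 0.11 after the libraries had been brought to a common median.

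**Figure D1:**
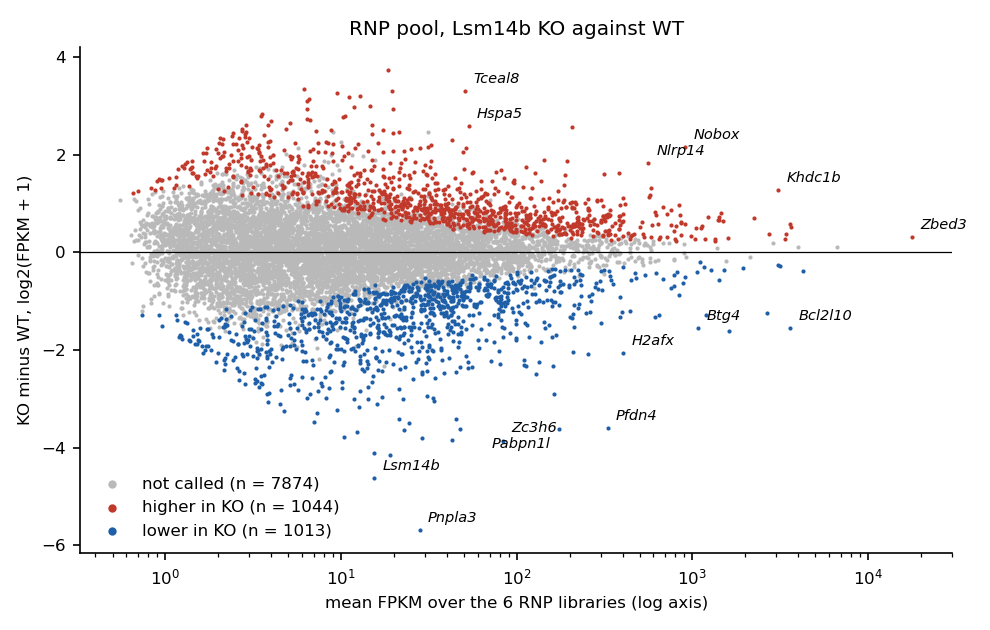
Change of each of 9931 genes between KO and WT in the RNP pool, as log2(FPKM + 1), against its mean FPKM over the 6 libraries on a log axis, with called genes in red (higher) and blue (lower). Falls such as *Pnpla3* (-5.70) and *Pabpn1l* (-3.62) reach further than rises, and abundant transcripts such as *Nobox* (2.16), *Bcl2l10* (-1.55) and *Zbed3* (0.31) are labelled.

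The targeted gene itself served as the check of the labels. *Lsm14b* (chr2:180024987-180035465 on GRCm38) was at 34.6, 29.3 and 27.4 FPKM in the WT and 0.893, 0.0627 and 0 in the KO libraries. No KO library reached 1 FPKM, and the change was -4.63 (SE 0.35, limma adjusted p = 5.66e-05), with an exact two-sided permutation p of 0.1, the smallest that 3 libraries against 3 can give. Its relative *Lsm14a* was at 119, 124 and 114 FPKM in the WT and 103, 103 and 118 in the KO libraries, with overlapping groups and a change of -0.14 (SE 0.11, limma adjusted p = 0.406).

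Among the 12 largest falls (mean over the 6 libraries of 5 FPKM or more, groups not overlapping), *Lsm14b* came second. *Pnpla3* (chr15:84167837-84187236), which encodes a lipase of lipid droplets, was at 57.3, 52.4 and 57.8 FPKM in the WT and 0.0291, 0.196 and 0.0674 in the KO libraries. Its transcript was thus close to undetected in KO, with a change of -5.70 (SE 0.26, limma adjusted p = 4.27e-06). *Zc3h6* (chr2:128967402-129018563), a CCCH zinc finger gene, fell from 157, 157 and 158 FPKM in WT to 8.68, 11.3 and 9.84 in KO, by a change of -3.86 (SE 0.15, limma adjusted p = 2.16e-06). Replicates of *Zc3h6* were close together in both genotypes. *Pabpn1l* (chr8:122619471-122622739), the oocyte poly(A)-binding protein that works with BTG4 in clearing maternal mRNA, was at 361, 304 and 303 FPKM in the WT and 31.2, 25.7 and 19.9 in the KO libraries, a change of -3.62 (SE 0.17, limma adjusted p = 4.27e-06). *Exosc3*, a subunit of the RNA exosome, fell from 48.7, 53.3 and 59.7 FPKM in WT to 3.398, 6.74 and 0.758 in KO. *Sdhaf1*, an assembly factor of succinate dehydrogenase, fell from 76.4, 80.7 and 84.4 FPKM in WT to 3.02, 7.59 and 4.37 in KO. Cell polarity and spindle genes were also in this group, with *Pard6g*, a PAR6 polarity protein, from 33.1, 38.5 and 38.8 FPKM in WT to 0.531, 0.696 and 2.67 in KO, and *Fam83d*, a spindle protein, from 20.2, 23.1 and 26.9 FPKM in WT to 1.21, 2.07 and 0 in KO. *Spry1*, an inhibitor of receptor tyrosine kinase signalling, fell from 85.1, 73.1 and 106 FPKM in WT to 5.81, 3.45 and 11.2 in KO, and *Sptssa*, a small subunit of serine palmitoyltransferase, from 30.5, 34.7 and 61.2 FPKM in WT to 4.24, 0 and 5.88 in KO. *Zfp3*, a zinc finger gene, changed by -4.11, and *Rilpl1*, a RILP-like protein of vesicle transport, by -3.78. *Pnpla3*, *Pabpn1l* and *Sptssa* each share their locus in the deposited table with a miRNA gene.

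The 12 largest rises began from low WT levels, below 12 FPKM in every WT library. *Tceal8* (chrX:136168984-136172342), of a family of X-linked small proteins related to transcription elongation factor A, was at 7.12, 7.30 and 11.6 FPKM in the WT and 90.7, 104 and 84.3 in the KO libraries. It was the most abundant of the group in KO, and its change was 3.30 (SE 0.22, limma adjusted p = 3.32e-05). The linker histone gene *Hist1h1e* had the largest change, 3.73 (SE 0.62, limma adjusted p = 0.00338), but its KO values spread widely, at 30.1, 14.3 and 61.6 FPKM against 3.19, 0 and 2.003 in WT. *Pdha2*, the testis isoform of a pyruvate dehydrogenase subunit, was at 3.21, 10.02 and 0 FPKM in the WT and 41.01, 33.2 and 30.1 in the KO libraries. *Plin2*, which coats lipid droplets, rose from 7.40, 5.13 and 1.01 FPKM in WT to 38.3, 33.9 and 33.4 in KO, opposite in direction to the lipid droplet lipase *Pnpla3*. Signalling genes included *Wls*, needed for Wnt secretion, which rose from 2.87, 1.36 and 3.14 FPKM in WT to 30.2, 31.9 and 17.9 in KO, and *Chrdl1*, a BMP antagonist, which rose from 0, 1.03 and 0 FPKM in WT to 11.1, 12.7 and 11.996 in KO. *Dyrk3*, a kinase that dissolves RNA granules and other condensates in dividing cells, rose from 0.725, 1.91 and 3.47 FPKM in WT to 15.8, 25.1 and 24.5 in KO. *Abce1*, the ATPase that splits terminated ribosomes, rose from 1.63, 0.324 and 0 FPKM in WT to 13.3, 13.5 and 10.5 in KO. *Rab5b*, *Ostm1*, *Serpinb3a* and *Zc4h2* made up the rest, with changes of 3.18, 3.10, 3.21 and 3.25. Several of these genes had a WT library at 0, so their fitted changes depend on the pseudocount of 1. Calls for *Pdha2* and *Rab5b* were lost under 2 and 1 of the 15 alternative settings.

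**Figure D2:**
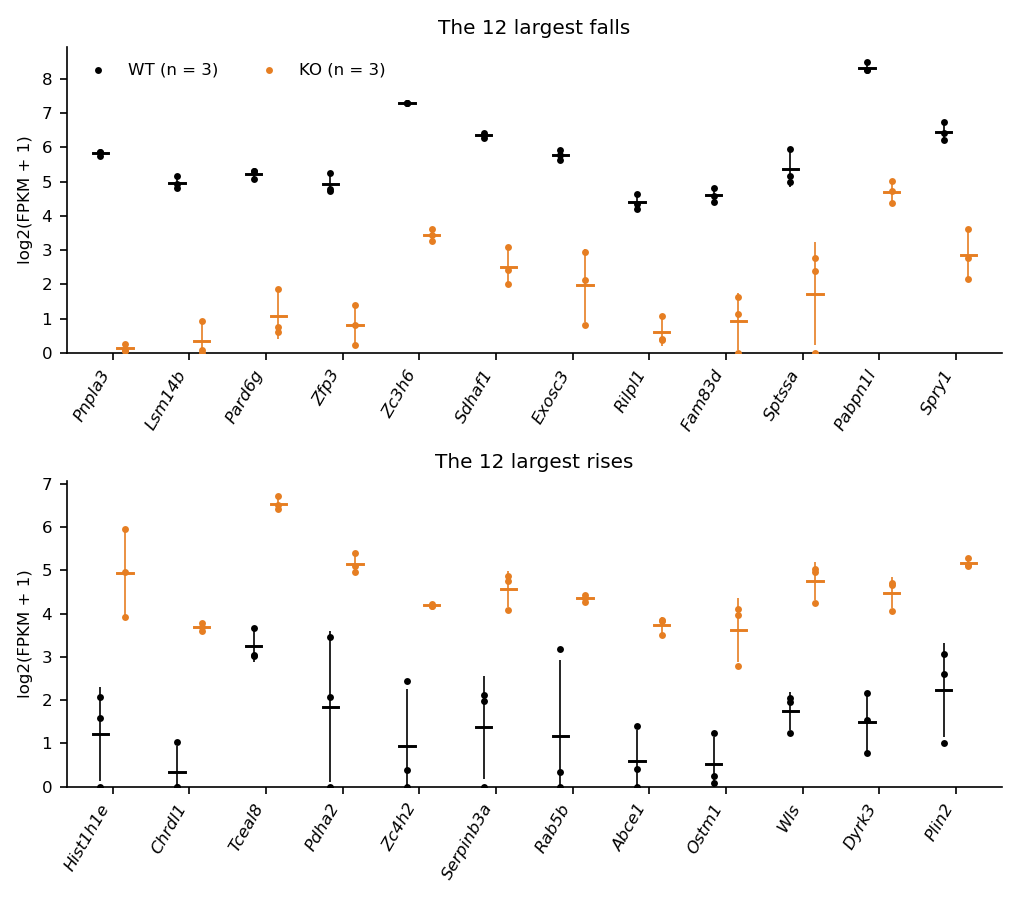
The 12 largest falls and 12 largest rises in the RNP pool, as log2(FPKM + 1) in each library (points), with the mean (bar) and SD (line) of 3 WT and 3 KO libraries. WT and KO points do not overlap for any of the 24 genes, as the rule that chose them requires.

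The families were then taken in turn, with lists written from known functions and chosen with earlier results of these data known. A share of called members is to be read against the background of 10.5% higher and 10.2% lower and a median change of 0.05 over all genes tested. That background depends on level. It ran from 4.30% higher and 4.21% lower below 5 FPKM to 33.8% and 18.4% above 100 FPKM. No list was matched for level, so lists of abundant transcripts have a higher background than the one given. The list of the subcortical maternal complex and *Nlrp* genes stood furthest to the side of rises, with 14 of 18 members called higher, and the replication-independent histone variants furthest to the side of falls, with 6 of 13 called lower. The latter place rests on the scaling, since after median rescaling 3 of the 13 were lower and 4 higher. In the deadenylation and decapping list 8 of 33 were then lower and 3 higher. The count of called members moved by more than 1.5 times under at least 1 alternative for 29 of the 35 lists, so the range of that count over the 15 alternatives is given where a list is described, with the count for each left-out replicate that moved it by that much.

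**Figure D3:**
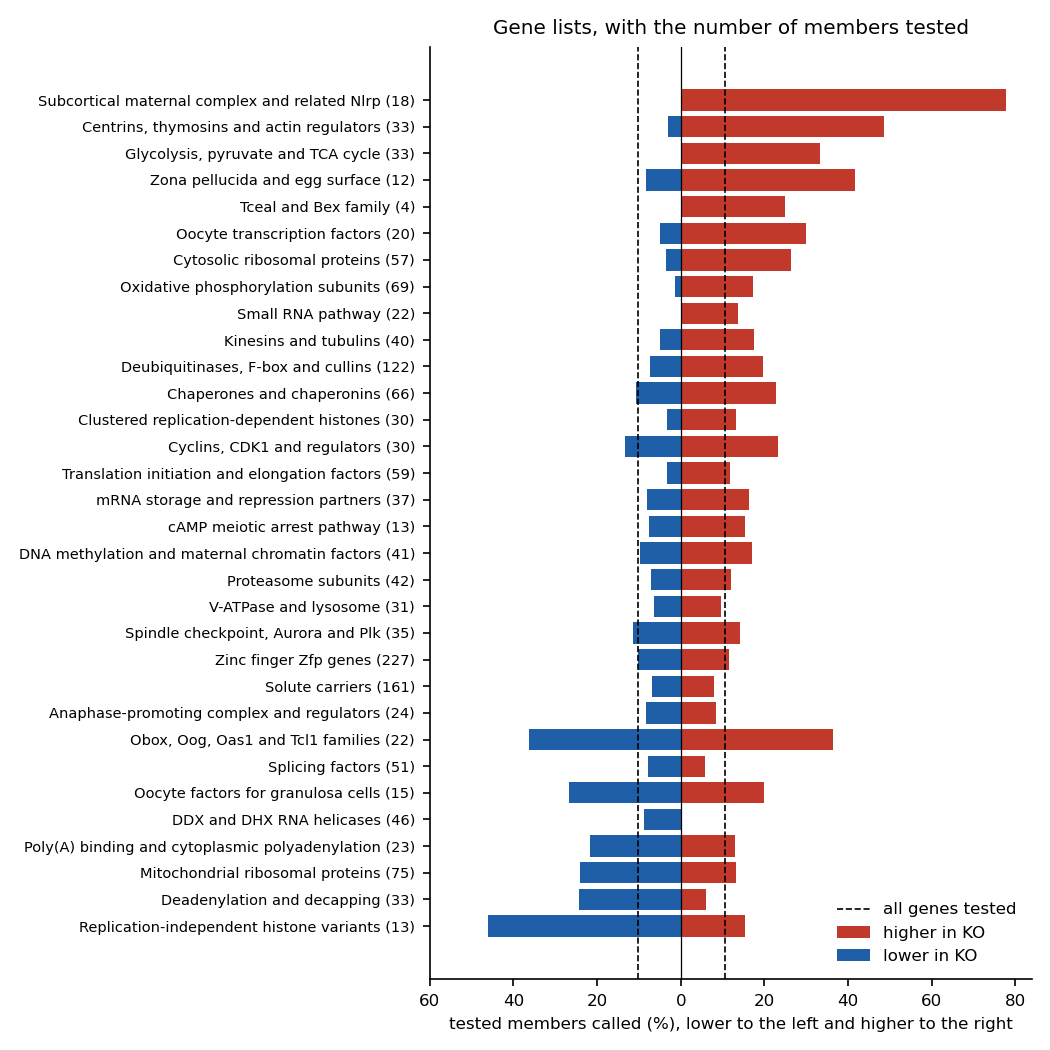
Share of tested members called higher (right, red) and lower (left, blue) in KO for each functional list, with the number tested in parentheses and dashed lines at the shares of all genes tested, 10.5% and 10.2%. Shares of short lists rest on few genes, such as 1 of 4 in the *Tceal* and *Bex* family.

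Genes that store, deadenylate and decap mRNA changed unevenly, and of the decay factors that passed the test most were lower in KO. In the list of deadenylation and decapping factors, 2 of 33 tested members rose and 8 fell (median -0.10, 7 to 12 called under the alternatives). *Btg4* (chr9:51060901-51119875), the adaptor that brings the CCR4-NOT deadenylase to maternal mRNA, was at 1573, 1660.5 and 1609 FPKM in the WT and 549, 579.9 and 521 in the KO libraries. The groups were far apart, and the change was -1.55 (SE 0.07, limma adjusted p = 2.16e-06). The catalytic subunit *Cnot8* fell from 163, 160.2 and 166 FPKM in WT to 48.5, 73.99 and 58.4 in KO, a change of -1.44, and its paralog *Cnot7* changed by -0.56 (a call lost under 1 of the alternative settings). *Dcp1a* and *Dcp2* form the decapping enzyme. The former fell from 279.9, 317 and 296 FPKM in WT to 119.8, 111 and 118 in KO, a change of -1.35 (SE 0.09, limma adjusted p = 5.02e-05), and the latter from 8.22, 8.58 and 10.2 FPKM in WT to 4.22, 3.29 and 2.54 in KO, a change of -1.21 (a call lost under 2 of the alternative settings). The anti-proliferative adaptors *Tob1* and *Tob2*, which also bind CCR4-NOT, moved the other way, by 1.01 (a call lost under 2 of the alternative settings) and 0.75.

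Factors acting on the poly(A) tail were split as well, with 3 of 23 tested members higher and 5 lower (median 0.15, 4 higher and 4 lower after median rescaling, 5 to 11 called under the alternatives, with 5 without KO replicate 2 or 3). The non-canonical poly(A) polymerases *Papd5* and *Papd7* fell from 15.9, 21.2 and 16.8 FPKM in WT to 5.06, 9.06 and 3.42 in KO and from 117, 116 and 122 FPKM in WT to 50.01, 67.2 and 62.4 in KO. With *Pabpn1l*, these were the largest falls of the list. Rises were found for *Paip2*, a repressor of poly(A)-binding protein, which was at 311, 317 and 311 FPKM in the WT and 491, 464 and 506 in the KO libraries, and for *Pabpc4*, a cytoplasmic poly(A)-binding protein, with a change of 0.94 (a call lost under 3 of the alternative settings). *Cpeb1*, which binds the cytoplasmic polyadenylation element, was at 275, 287 and 296 FPKM in the WT and 293, 272 and 316 in the KO libraries, with a change of 0.04 (SE 0.09, limma adjusted p = 0.815). *Pabpc1l*, the poly(A)-binding protein of oocytes, changed by 0.45 (SE 0.15, limma adjusted p = 0.0662).

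Storage partners of LSM14B gave 6 rises and 3 falls among 37 tested members, *Lsm14b* included (median 0.13, 7 to 9 called under the alternatives). *Patl2* (chr2:122120108-122186189), an oocyte RNA-binding repressor, was at 4.27, 5.74 and 5.13 FPKM in the WT and 26.7, 31.2 and 24.7 in the KO libraries. The groups were far apart, and the change was 2.24 (SE 0.23, limma adjusted p = 0.000342). *Ythdf2*, the reader of N6-methyladenosine that promotes decay, rose from 27.4, 21.1 and 32.5 FPKM in WT to 76.02, 79.03 and 102 in KO, and *Elavl2*, a repressor of translation in oocytes, from 47.1, 38.8 and 42.3 FPKM in WT to 76.8, 79.3 and 70.5 in KO. *Dazl*, which activates translation through the 3′ UTR, fell from 93.3, 100.4 and 87.7 FPKM in WT to 30.8, 33.4 and 27.9 in KO, a change of -1.58 (SE 0.14, limma adjusted p = 0.000141). *Zar1l* fell from 821, 811 and 783 FPKM in WT to 542, 576 and 538 in KO, while its relative *Zar1*, which organises maternal mRNA storage, varied widely at 701, 1012 and 952 FPKM in the WT and 902, 584 and 1236 in the KO libraries. The helicase *Ddx6* was weakly listed at 2.42, 2.46 and 0.286 FPKM in the WT and 5.13, 3.24 and 4.73 in the KO libraries, with a change of 1.10 (SE 0.46, limma adjusted p = 0.128). *Ybx2* and *Eif4enif1*, the gene of 4E-T, changed by -0.22 (limma adjusted p = 0.434) and 0.15 (limma adjusted p = 0.4). Among other RNA helicases of the DDX and DHX families, 4 of 46 fell and none rose by limma, with 7 rises and 5 falls at an unadjusted p under 0.05 (2 to 5 called under the alternatives, with 2 without KO replicate 1, 2 or 3 or WT replicate 3). *Dhx57* changed by -1.09, *Dhx8* by -1.22 (a call lost under 7 of the alternative settings) and *Ddx24* by -0.44 (a call lost under 4 of the alternative settings).

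**Figure D4:**
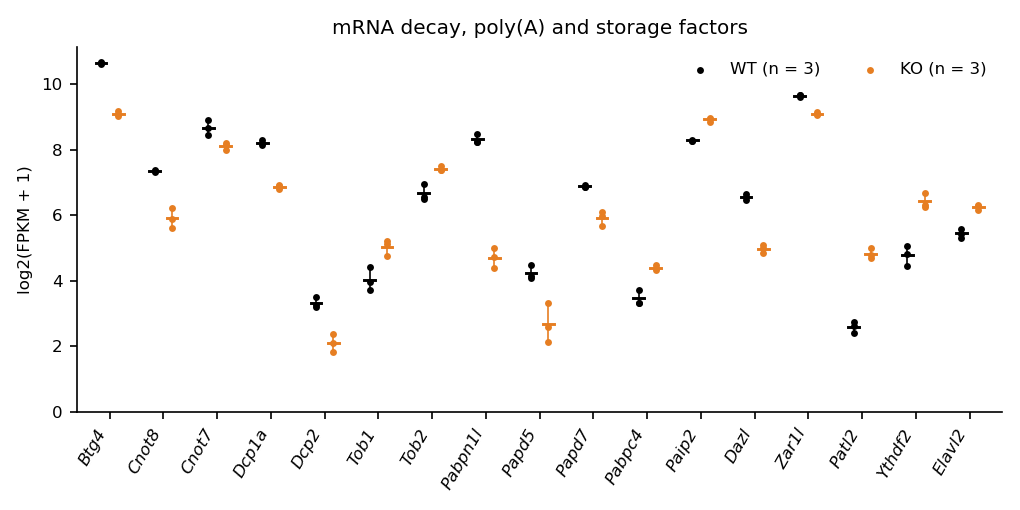
Levels of factors of mRNA decay, poly(A) metabolism and storage in each RNP library (points) as log2(FPKM + 1), with the mean (bar) and SD (line) of 3 WT and 3 KO libraries. *Btg4*, *Cnot8*, *Dcp1a*, *Pabpn1l* and *Dazl* lie lower in KO, and *Tob2*, *Paip2*, *Patl2*, *Ythdf2* and *Elavl2* lie higher.

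Sequences crosslinked to LSM14B are shown for some called genes of these groups and of the bound list that follows. Whether binding at a site has a part in the change of its transcript was not tested. Of the tested transcripts on the bound list, 252 were not called. They come from the study's LACE-Seq table, which lists peaks found by UV crosslinking and immunoprecipitation of LSM14B in GV-stage oocytes, and were placed on GENCODE M21 transcripts on GRCm38 in the sense direction. Of 1872 listed peaks of at most 30 bases in the bound and tested genes searched, 1300 in 273 genes were placed. Each matched a single place in the transcript used, inside 1 exon. Of these, 655 were in coding sequence, 539 in 3′ UTRs and 85 in 5′ UTRs. Matches to other genes were not searched for, so a site in a gene with close copies may also fit a copy. For each gene the first placed site by coordinate is given, 5′ to 3′ on the transcript strand, in lower case throughout because no motif was searched. The *Lsm14b* site lies at chr2:180026696-180026715 (+ strand, exon 2, coding sequence), that of *Btg4* at chr9:51116656-51116675 (+ strand, exon 2, coding sequence), that of *Dcp1a* at chr14:30505555-30505574 (+ strand, exon 5, coding sequence), that of *Cnot7* at chr8:40492827-40492846 (- strand, exon 7, 3′ UTR), that of *Papd7* at chr13:69498203-69498222 (- strand, exon 13, 3′ UTR), that of *Slain1* at chr14:103650604-103650623 (+ strand, exon 1, coding sequence), that of *Khdc1b* at chr1:21383780-21383799 (+ strand, exon 1, 5′ UTR) and that of *Vrtn* at chr12:84642711-84642730 (+ strand, exon 1, 5′ UTR).
Lsm14b: ttatgagtacatcattttcc
Btg4: acagaggtcactggcaccct
Dcp1a: agaggagacacggcgatccc
Cnot7: gtgaaatatttagccatgca
Papd7: ttaaggagccaccgtggggc
Slain1: gccccggccagcacgacctc
Khdc1b: aggcatttgagtctcctccc
Vrtn: gatagcaggctgctctcggc

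A list of bound transcripts was taken from the first 472 entries of the LACE-Seq table, which is held here only in part. The entries are those with the most LACE-Seq reads, and their counts do not speak for bound transcripts in general. Of them, 446 matched the expression table and 377 were tested. 88 of them fell and 37 rose (median -0.15, 73 to 132 called under the alternatives, lowest without an intensity trend). Over all genes tested, 10.2% fell and 10.5% rose, and above 100 FPKM these shares were 18.4% and 33.8%. The bound list was not matched for level. *Slain1*, a microtubule plus-end factor, fell from 57.2, 94.3 and 91.1 FPKM in WT to 13.3, 16.5 and 14.2 in KO, a change of -2.36 (SE 0.22, limma adjusted p = 0.000177). *St3gal5*, which makes the ganglioside GM3, fell from 21.8, 31.9 and 18.8 FPKM in WT to 6.21, 4.32 and 2.31 in KO. Bound transcripts with the largest rises were *2610305D13Rik*, *Vrtn* and *Khdc1b*. *Khdc1b*, of the KH domain family expressed in oocytes, rose from 1766, 1771 and 1841 FPKM in WT to 4378, 4538 and 4109 in KO, a change of 1.27 (SE 0.05, limma adjusted p = 2.16e-06). *Vrtn* rose from 89.9, 95.3 and 96.8 FPKM in WT to 259.9, 319.8 and 269 in KO, and *2610305D13Rik* from 78.7, 74.9 and 93.7 FPKM in WT to 314, 299 and 292 in KO.

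Genes of the subcortical maternal complex, a protein assembly under the oocyte membrane that early embryos need, were mostly higher in KO in the RNP pool. With the related *Nlrp* genes and *Kpna7*, 14 of 18 members rose and none fell by limma (median 0.82). Among those not called was *Nlrp2*, with overlapping groups and a change of -0.16. At an unadjusted p under 0.05 there were 15 rises and 0 falls, and 10 to 15 members were called under the alternatives, each time higher. *Nlrp14* was at 256, 214 and 271 FPKM in the WT and 868, 918 and 844 in the KO libraries, the largest change of the list at 1.83 (SE 0.10, limma adjusted p = 9.73e-06). *Tle6* rose from 261, 265 and 256 FPKM in WT to 519.6, 502 and 509.8 in KO, *Ooep* from 523, 454 and 429 FPKM in WT to 831, 847 and 978 in KO and *Padi6* from 124, 117 and 123.4 FPKM in WT to 223, 217 and 218 in KO. These 3 scaffold genes thus rose by between 1.81-fold and 1.96-fold in mean FPKM. *Nlrp5*, also called *Mater*, rose from 59.4, 67.1 and 57.3 FPKM in WT to 115, 121 and 99.9 in KO, *Nlrp9a* from 58.3, 47.8 and 53.5 FPKM in WT to 120.5, 132 and 119 in KO and *Nlrp4b* from 94.9, 101 and 74.3 FPKM in WT to 180.0, 207 and 185 in KO. *Zbed3*, the transcript with the highest FPKM in every library of the pool, was at 15095, 16318 and 16324 FPKM in the WT and 18931, 18354 and 22246 in the KO libraries, a change of 0.31 (SE 0.07, limma adjusted p = 0.0121, a call lost under 3 of the alternative settings). It shares its locus in the deposited table with another gene. Members of the *Nlrp4* and *Nlrp9* groups are closely similar in sequence, so reads may have been divided among them by the authors' quantification. The direction was not particular to the RNP pool. In the polysome pool *Nlrp14* changed by 1.22, *Nlrp5* by 1.08, *Padi6* by 0.86, *Tle6* by 0.59 and *Ooep* by 0.34. The interaction of genotype and pool was not called for any of them, with the lowest limma adjusted p, 0.0912, for *Nlrp14*.

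**Figure D5:**
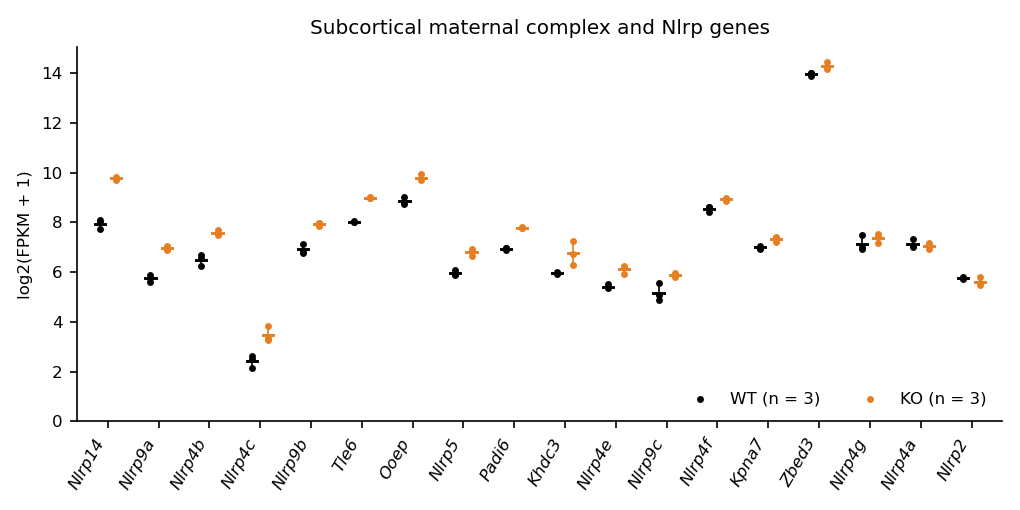
Levels of the 18 genes of the subcortical maternal complex and *Nlrp* list in each RNP library (points) as log2(FPKM + 1), in order of their change, with the mean (bar) and SD (line) of 3 WT and 3 KO libraries. KO points lie above WT points for 15 of the 18 genes, from *Nlrp14* to *Zbed3* and *Kpna7*, and overlap for the rest.

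Transcription factors of the oocyte programme gave 6 rises and 1 fall among 20 tested members (median 0.30, 3 to 8 called under the alternatives, with 4 without KO replicate 1). The homeobox gene *Nobox*, a master regulator of folliculogenesis, rose from 309, 343 and 350.0 FPKM in WT to 1567, 1493 and 1415 in KO. *Figla*, a bHLH factor that activates zona genes, rose from 14.03, 6.58 and 10.1 FPKM in WT to 26.8, 22.1 and 26.1 in KO, and *Lhx8* from 105, 113 and 92.7 FPKM in WT to 142, 161 and 151 in KO. *Pou5f1*, the pluripotency factor OCT4, changed by 0.59 (a call lost under 4 of the alternative settings), and *Sohlh1* was listed at 0 in all 6 libraries. Among genes of the zona pellucida and egg surface, 5 of 12 rose and 1 fell (median 0.40, 3 to 6 called under the alternatives, lowest without an intensity trend). *Cd9*, the tetraspanin needed for sperm fusion, rose from 47.4, 46.2 and 36.99 FPKM in WT to 118, 124 and 136 in KO, a change of 1.52 (SE 0.14, limma adjusted p = 0.00018), and *Izumo1r*, the sperm receptor JUNO, from 207, 243 and 213 FPKM in WT to 319.8, 340.2 and 328 in KO. The zona gene *Zp3* rose by 0.41 (a call lost under 2 of the alternative settings), whereas *Zp1* was level at 65.1, 62.5 and 59.6 FPKM in the WT and 65.2, 58.6 and 59.7 in the KO libraries and *Zp2* changed by 0.62 (SE 0.23, limma adjusted p = 0.0846). Oocyte secreted proteins split, with *Oosp2* at 0.76 and *Oosp3* at -1.03.

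Signals between the oocyte and its granulosa cells were divided, with 3 rises and 4 falls among 15 tested members (median 0.11, 3 to 8 called under the alternatives, lowest without an intensity trend). *Fgf8*, a growth factor that drives glycolysis in cumulus cells, was at 298, 249 and 223 FPKM in the WT and 71.4, 71.5 and 93.2 in the KO libraries, a change of -1.69 (SE 0.15, limma adjusted p = 0.000137). *Il7* fell from 68.8, 56.5 and 63.7 FPKM in WT to 31.3, 26.5 and 32.8 in KO. *Gdf9*, the oocyte TGF-beta factor, rose from 2925, 2919 and 3174 FPKM in WT to 4427, 4478 and 4051 in KO, a change of 0.52 (a call lost under 1 of the alternative settings), and *Rspo2*, a Wnt enhancer, from 153, 184 and 171 FPKM in WT to 225, 282 and 239 in KO. The partner of GDF9, *Bmp15*, was at 641, 714 and 657 FPKM in the WT and 607, 623 and 585 in the KO libraries, with a change of -0.15 (SE 0.07, limma adjusted p = 0.179), and the receptor *Kit* changed by 0.16 (SE 0.15, limma adjusted p = 0.491). *Gpr3*, the receptor that keeps cAMP high and the oocyte arrested, was at 28.8, 36.1 and 58.8 FPKM in the WT and 18.2, 20.9 and 23.5 in the KO libraries, a change of -0.89 (a call lost under 8 of the alternative settings). Its opponent *Pde3a* changed by 0.23 (SE 0.29, limma adjusted p = 0.615). The regulatory subunits of protein kinase A *Prkar1a* and *Prkar2a* were at 0.86 (a call lost under 6 of the alternative settings) and 0.80 (a call lost under 8 of the alternative settings). Of the 13 tested members of the cAMP pathway, 2 were called higher and 1 lower (0 to 4 called under the alternatives, with 0 without KO replicate 1 or 2 and 1 without KO replicate 3 or WT replicate 2 or 3, and also 0 without a filter on low values or without an intensity trend).

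The oocyte-specific gene families *Obox*, *Oog*, *Oas1* and *Tcl1* had 8 rises and 8 falls in 22 tested members (median -0.05, which turned positive after median rescaling, with 5 higher and 10 lower after quantile normalization, and 3 to 16 called under the alternatives, lowest without an intensity trend). *C86187*, a gene of this list, fell from 2144, 2571 and 2643 FPKM in WT to 810.1, 827 and 747 in KO, a change of -1.62 (SE 0.09, limma adjusted p = 9.73e-06). *AU022751* fell from 3398, 3943 and 3905 FPKM in WT to 1481, 1665 and 1621 in KO. *Tcl1*, a coactivator of AKT, fell from 4644, 4849 and 5064 FPKM in WT to 3778, 3781 and 3602 in KO, and *Tcl1b5* from 47.96, 52.9 and 66.99 FPKM in WT to 18.9, 30.9 and 21.04 in KO. *Oog2*, *Oog4* and *Oas1c* rose by 0.63 (a call lost under 1 of the alternative settings), 0.57 (a call lost under 1 of the alternative settings) and 0.59 (a call lost under 1 of the alternative settings). *Obox1* was at 1669, 1689 and 1603 FPKM in the WT and 1445, 1560.0 and 1381 in the KO libraries, a change of -0.18 (SE 0.06, limma adjusted p = 0.0729). These families hold close copies, and their values are uncertain where reads are shared.

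Regulators of meiotic resumption moved in both directions. Among cyclins, CDK1 and their regulators, 7 of 30 rose and 4 fell (median 0.13, 5 to 12 called under the alternatives, with 7 without KO replicate 3, lowest without an intensity trend). *Ccnb1*, the cyclin of maturation-promoting factor, was at 487, 562 and 564 FPKM in the WT and 365, 359 and 356 in the KO libraries, a change of -0.57 (SE 0.08, limma adjusted p = 0.00171, a call lost under 1 of the alternative settings). *Ccnb2*, the cyclin that opens meiotic resumption, rose from 31.5, 24.3 and 35.6 FPKM in WT to 61.2, 55.2 and 51.8 in KO, a change of 0.87 (SE 0.18, limma adjusted p = 0.00903). *Mos*, the kinase upstream of MAPK in meiosis, fell from 1645, 1571 and 1894 FPKM in WT to 1299, 1295 and 1364 in KO. *Cdc25a*, a phosphatase that activates CDK1, fell from 41.8, 57.6 and 51.2 FPKM in WT to 26.4, 24.2 and 28.7 in KO, and *Cdk2* rose from 24.5, 16.6 and 22.04 FPKM in WT to 48.7, 51.4 and 44.6 in KO. The inhibitory kinase *Wee2* of oocytes was at 302, 317 and 316 FPKM in the WT and 290.1, 307 and 274 in the KO libraries, with a change of -0.10 (SE 0.08, limma adjusted p = 0.421), whereas its somatic relative *Wee1* rose from a lower level, 5.05, 4.70 and 3.46 FPKM in WT, to 10.5, 13.1 and 16.2 in KO. *Mastl* changed by -0.25 (SE 0.14, limma adjusted p = 0.257), and *Ppp2r1b*, a PP2A scaffold, by 1.18 (a call lost under 6 of the alternative settings).

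The anaphase-promoting complex had 2 members higher and 2 lower of 24 tested (6 higher and 2 lower after median rescaling, 3 to 8 called under the alternatives, with 7 without WT replicate 3), and both directions included its inhibitors. *Fbxo43* (EMI2), which holds the metaphase II arrest, fell from 78.1, 80.5 and 82.6 FPKM in WT to 42.99, 37.3 and 30.1 in KO, a change of -1.12 (SE 0.16, limma adjusted p = 0.0016). *Fbxo5* (EMI1), the inhibitor active at the GV stage, rose from 171, 168 and 96.5 FPKM in WT to 265, 262 and 279 in KO. *Cdc26*, a small subunit, fell from 28.9, 33.4 and 26.7 FPKM in WT to 13.2, 12.8 and 9.02 in KO, and securin, encoded by *Pttg1*, rose from 18.5, 15.5 and 15.3 FPKM in WT to 30.5, 27.6 and 31.3 in KO. Of 35 tested genes of the spindle checkpoint, Aurora and Plk list, 5 rose and 4 fell (6 higher and 3 lower after median rescaling, 4 to 10 called under the alternatives, with 4 without KO replicate 1 and 5 without KO replicate 2 or 3). *Birc5* (survivin), of the chromosomal passenger complex, rose from 711, 670.5 and 673 FPKM in WT to 1039.9, 1036 and 1065 in KO, and *Bub1b* (BUBR1) fell from 163, 138 and 149.8 FPKM in WT to 90.8, 97.9 and 87.8 in KO. The cohesin acetyltransferases differed in direction. *Esco1* fell from 106, 108 and 136 FPKM in WT to 29.2, 36.4 and 30.1 in KO, and *Esco2* rose from 99.8, 94.4 and 101 FPKM in WT to 173, 155 and 126 in KO. The cohesin subunit *Smc3* fell from 9.32, 7.40 and 11.3 FPKM in WT to 2.41, 2.58 and 2.95 in KO. *Plk1* and *Tpx2* changed by 0.23 (limma adjusted p = 0.149) and 0.15 (limma adjusted p = 0.673).

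Genes of the cytoskeleton leaned to higher levels. Of 33 tested centrin, thymosin and actin regulator genes, 16 rose and 1 fell (median 0.53, 11 to 17 called under the alternatives, with 11 without KO replicate 2). *Tmsb10*, an actin-sequestering thymosin, was at 413, 309 and 286 FPKM in the WT and 823, 779 and 879 in the KO libraries, a change of 1.31 (SE 0.13, limma adjusted p = 0.000247). *Cetn2*, a centrin of the centriole, rose from 53.05, 42.7 and 34.1 FPKM in WT to 115, 104 and 103 in KO. Subunits of the ARP2/3 complex, which nucleates branched actin, were more often called higher than lower. *Arpc1a* rose from 8.82, 10.8 and 3.03 FPKM in WT to 29.1, 38.1 and 28.7 in KO. *Arpc1b*, *Arpc2*, *Arpc3* and *Actr3* were called higher too, with changes of 0.60, 0.90, 0.94 and 0.53. *Arpc4* fell, from 28.9, 20.8 and 41.1 FPKM in WT to 15.6, 12.1 and 10.4 in KO. *Arpc5*, *Arpc5l* and *Actr2* were not called, with changes of 0.79, 0.19 and -0.07. Among kinesins and tubulins, 7 of 40 rose and 2 fell (6 higher and 3 lower after quantile normalization, 6 to 10 called under the alternatives). *Tuba1b* rose from 36.7, 95.97 and 58.8 FPKM in WT to 211, 224 and 234 in KO, *Tuba1c* from 64.2, 95.7 and 61.3 FPKM in WT to 209, 203 and 192 in KO and *Tubb2b* from 34.8, 26.5 and 29.1 FPKM in WT to 66.8, 65.8 and 77.1 in KO. *Tuba3b* fell from 61.05, 59.99 and 57.03 FPKM in WT to 17.98, 11.1 and 13.97 in KO, and *Tuba4a*, the most abundant alpha tubulin named, from 551, 569.7 and 561 FPKM in WT to 361, 412 and 404 in KO. Tubulin genes are close copies, and reads shared among them make each value uncertain.

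Energy metabolism leaned the same way. Of 33 tested genes of glycolysis, pyruvate and the TCA cycle, 11 rose and none fell by limma (median 0.45), with 13 rises and 0 falls at an unadjusted p under 0.05 and 6 to 13 called under the alternatives, with 6 without KO replicate 1, 2 or 3 and 7 without WT replicate 2. *Idh3a*, of isocitrate dehydrogenase, rose from 20.4, 31.5 and 22.3 FPKM in WT to 59.3, 50.4 and 49.7 in KO. *Mpc2*, of the mitochondrial pyruvate carrier, rose from 26.2, 17.05 and 15.5 FPKM in WT to 38.04, 42.2 and 41.03 in KO, and *Suclg2* from 6.77, 15.9 and 6.88 FPKM in WT to 24.5, 25.8 and 26.5 in KO. *Ldhb* and *Pdha1* changed by 0.29 (limma adjusted p = 0.0738) and 0.33 (limma adjusted p = 0.191). Oxidative phosphorylation subunits had 12 rises and 1 fall among 69 tested (median 0.44, 10 to 20 called under the alternatives, with 20 without WT replicate 1). *Atp5g1*, a subunit c gene of ATP synthase, was at 51.3, 49.2 and 50.5 FPKM in the WT and 141, 142 and 144 in the KO libraries, with tight replicates and a change of 1.48 (SE 0.11, limma adjusted p = 5.55e-05). *Cox6b2*, *Cox7b* and *Cox7c*, all of cytochrome c oxidase, rose by 1.37, 1.25 and 1.19 (a call lost under 2 of the alternative settings). The exception was *Ndufb7* of complex I, which fell from 35.1, 19.1 and 26.5 FPKM in WT to 7.06, 7.48 and 8.95 in KO.

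Ribosomal protein genes differed between the cytosolic and the mitochondrial ribosome. Of 87 cytosolic genes found, only 57 passed the filter. 15 of these rose and 2 fell (median 0.44, 10 to 19 called under the alternatives, with 10 without KO replicate 3). *Rpl41* was at 1309, 910.0 and 973 FPKM in the WT and 1759.6, 1868 and 1879.6 in the KO libraries, a change of 0.80 (SE 0.12, limma adjusted p = 0.00207), and *Rps24* rose from 9.13, 7.29 and 5.92 FPKM in WT to 21.5, 23.2 and 20.4 in KO. *Rpl36al* fell from 697, 598 and 556 FPKM in WT to 258, 284 and 253 in KO, and *Rpl14* from 64.8, 50.1 and 56.97 FPKM in WT to 25.8, 25.5 and 36.3 in KO. For 13 cytosolic genes, including *Rps21*, the table lists 0 in all 6 libraries, and *Rpl19* does not exceed 0.303 FPKM. Apart from *Rpl3l*, a paralog of striated muscle, these are genes that every cell uses, so such a 0 may be a failed estimate, and the list describes only the members that the table quantifies. The mitochondrial list was nearly complete, with 75 of 76 tested, and 18 fell while 10 rose (median -0.07, 18 to 29 called under the alternatives). *Mrps18a* fell from 84.8, 63.4 and 70.9 FPKM in WT to 31.01, 21.1 and 18.1 in KO, *Mrps12* from 69.1, 79.2 and 81.6 FPKM in WT to 25.9, 16.4 and 36.4 in KO and *Mrpl12* from 128, 129 and 107 FPKM in WT to 65.5, 75.8 and 65.4 in KO. Rises included *Mrps30*, from 21.1, 12.2 and 22.5 FPKM in WT to 43.05, 58.8 and 48.4 in KO, and *Mrpl55*, from 50.4, 27.6 and 46.6 FPKM in WT to 97.1, 85.7 and 98.00 in KO. Translation factors gave 7 rises and 2 falls among 59 tested (median 0.08, 7 to 12 called under the alternatives). *Eef1a1* rose from 164, 168 and 167 FPKM in WT to 226, 262 and 265 in KO, *Eif3l* from 33.5, 33.5 and 40.5 FPKM in WT to 65.1, 62.6 and 60.02 in KO, and *Eef1e1*, a component of the multi-tRNA synthetase complex, fell from 176, 139 and 144 FPKM in WT to 46.8, 40.7 and 45.4 in KO. *Eif4e1b*, the eIF4E of oocytes, changed by 0.16 (SE 0.09, limma adjusted p = 0.23).

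Protein folding genes had more rises than the background and falls at about the background share. Of 66 tested chaperones, 15 rose and 7 fell (median 0.19, 14 to 23 called under the alternatives). *Hspa5*, the chaperone BiP of the endoplasmic reticulum, was at 14.96, 10.96 and 18.1 FPKM in the WT and 94.2, 84.2 and 96.6 in the KO libraries, a change of 2.59 (SE 0.20, limma adjusted p = 6.22e-05). *Hsph1* rose from 22.6, 26.3 and 32.04 FPKM in WT to 79.3, 90.1 and 82.5 in KO, and *Cct4*, of the TRiC chaperonin, from 1.76, 1.76 and 1.92 FPKM in WT to 8.43, 8.31 and 12.2 in KO. *Pfdn4* (chr2), a prefoldin subunit that hands actin and tubulin to TRiC, fell from 569.7, 651 and 607 FPKM in WT to 59.4, 42.1 and 47.3 in KO, a change of -3.60 (SE 0.13, limma adjusted p = 1.64e-06), and shares its locus in the table with 2 other genes. The cochaperones *Dnajb4* and *Dnajc3* fell from 451, 405 and 468 FPKM in WT to 173, 155 and 155 in KO and from 26.6, 44.1 and 43.3 FPKM in WT to 9.91, 15.4 and 14.2 in KO. *Hsp90aa1* changed by 0.14 (SE 0.09, limma adjusted p = 0.309). Proteasome genes were near the background, with 5 higher and 3 lower of 42 (5 to 10 called under the alternatives, with 5 without KO replicate 1, 2 or 3 or WT replicate 1). *Psmg3*, a proteasome assembly chaperone, fell from 64.4, 55.3 and 57.1 FPKM in WT to 11.4, 9.45 and 6.83 in KO, and the subunit *Psmb2* rose from 31.3, 26.7 and 19.9 FPKM in WT to 71.98, 65.2 and 74.7 in KO.

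One cluster stood out among 122 tested deubiquitinase, F-box and cullin genes, of which 24 rose and 9 fell (23 to 37 called under the alternatives). All 13 tested *Fbxw* genes on chromosome 9, between 109139447 and 109790670 on GRCm38, rose, with changes from 0.56 to 1.10 (median 0.86). This set was singled out after its values were seen. Their summed FPKM was 571, 515 and 521 in WT and 1000, 1005 and 955 in KO. *Fbxw24*, one of them, was at 60.9, 53.1 and 62.5 FPKM in the WT and 114, 112 and 109.9 in the KO libraries, a change of 0.92 (SE 0.12, limma adjusted p = 0.00109). The 13 genes are neighbouring copies of F-box and WD40 repeat proteins expressed in oocytes, may share reads and are not 13 independent observations. Outside the cluster, *Usp1* fell from 35.2, 35.6 and 31.4 FPKM in WT to 15.6, 8.58 and 10.2 in KO, *Usp53* from 15.2, 19.6 and 15.4 FPKM in WT to 4.98, 4.45 and 3.34 in KO and *Fbxo33* from 20.9, 18.4 and 20.3 FPKM in WT to 2.88, 10.1 and 5.06 in KO.

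Histone variants leaned to falls. Of 13 tested replication-independent variants, 6 fell and 2 rose (median -0.19, 4 to 9 called under the alternatives, with 4 without KO replicate 1 or 2 and 5 without KO replicate 3). *H2afx*, the variant phosphorylated at DNA breaks, was at 616, 728 and 614 FPKM in the WT and 164, 129 and 177 in the KO libraries, a change of -2.06 (SE 0.13, limma adjusted p = 2.5e-05). *Cenpa*, the centromeric H3, fell from 73.4, 65.8 and 62.5 FPKM in WT to 19.1, 11.4 and 13.3 in KO, a change of -2.16 (SE 0.21, limma adjusted p = 0.00022). *H1foo*, the linker histone of oocytes, fell from 3583, 3273 and 3124 FPKM in WT to 2707, 2718 and 2913 in KO, a change of -0.26 (a call lost under 5 of the alternative settings). *H3f3a* and *H3f3b* encode the same H3.3 protein and went opposite ways, by 0.34 (a call lost under 1 of the alternative settings) and -0.19 (a call lost under 11 of the alternative settings). *H2afz* rose from a low level, from 3.03, 1.24 and 2.02 FPKM in WT to 8.05, 9.23 and 8.51 in KO. After median rescaling 3 of the list fell and 4 rose, so the lean of the list depended on the scaling. Clustered replication-dependent histone genes, most of which did not pass the filter, had 4 rises and 1 fall among 30 tested (1 to 8 called under the alternatives, with 3 without KO replicate 2 and 8 without WT replicate 2, lowest with all 12 libraries in the fit). *Hist1h2aa* fell from 127, 97.7 and 146 FPKM in WT to 51.05, 30.7 and 45.1 in KO, and *Hist1h2bc* was at 419, 367 and 318 FPKM in the WT and 331, 417 and 317 in the KO libraries.

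Chromatin regulators were mixed, with 7 of 41 tested members higher and 4 lower (median -0.07, 5 to 13 called under the alternatives, lowest without an intensity trend). Of the Polycomb genes named by size of change, *Bmi1* fell from 92.4, 99.3 and 108 FPKM in WT to 45.9, 52.9 and 59.7 in KO, *Eed* changed by -0.79 (a call lost under 2 of the alternative settings) and *Suz12* by -0.87 (a call lost under 4 of the alternative settings). *Tet3*, the maternal dioxygenase that oxidises 5-methylcytosine, fell from 106, 138 and 131 FPKM in WT to 69.8, 74.1 and 74.8 in KO. *Kdm1b*, an H3K4 demethylase needed for maternal imprints, rose from 10.6, 9.27 and 26.4 FPKM in WT to 53.6, 44.6 and 47.8 in KO, and *Setd2*, the H3K36 methyltransferase, from 6.61, 11.02 and 12.7 FPKM in WT to 29.1, 26.04 and 24.1 in KO. *Uhrf1* rose from 187, 186 and 185 FPKM in WT to 249, 266 and 244 in KO, and *Dppa3* (STELLA) from 1136, 869 and 802 FPKM in WT to 1276, 1256 and 1375 in KO. The methyltransferases *Dnmt1* and *Dnmt3a* changed by -0.38 (SE 0.14, limma adjusted p = 0.0761) and -0.21 (limma adjusted p = 0.668). In the small RNA pathway 3 of 22 tested genes rose and none fell by limma, with 5 rises and 2 falls at an unadjusted p under 0.05 (1 to 4 called under the alternatives, with 1 without KO replicate 1, 2 or 3 or WT replicate 2). *Mael* rose from 15.7, 16.02 and 13.3 FPKM in WT to 46.9, 45.6 and 48.4 in KO, a change of 1.59 (SE 0.17, limma adjusted p = 0.000377), and *Dicer1* was at 32.8, 36.5 and 39.1 FPKM in the WT and 50.3, 52.2 and 49.04 in the KO libraries, a change of 0.47 (a call lost under 8 of the alternative settings).

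Splicing factors, V-ATPase and lysosome genes, solute carriers and *Zfp* genes had shares near or below the background. Splicing factors had 3 rises and 4 falls of 51 (2 higher and 5 lower after quantile normalization, 3 to 8 called under the alternatives, with 3 without KO replicate 1 or 3 and 4 without KO replicate 2), with *Snrnp27* lower, from 123.2, 134 and 122 FPKM in WT to 36.3, 44.8 and 46.8 in KO. V-ATPase and lysosome genes had 3 and 2 of 31 (6 higher and 0 lower after median rescaling and 4 higher and 0 lower after quantile normalization, 3 to 7 called under the alternatives, with 3 without KO replicate 1, 2 or 3), with *Atp6v1g1* higher, from 320.4, 331 and 237 FPKM in WT to 503, 551 and 463 in KO. The median change of the V-ATPase and lysosome list was 0.33, above that of all genes tested, with 10 rises and 3 falls at an unadjusted p under 0.05. Solute carriers had 13 and 11 of 161 (20 higher and 11 lower after median rescaling, 13 to 31 called under the alternatives, with 13 without KO replicate 1 and 15 without KO replicate 2 or 3), and *Slc35b3*, a transporter of the sulfate donor PAPS, fell from 39.1, 52.6 and 58.6 FPKM in WT to 17.04, 8.94 and 12.7 in KO. *Zfp* genes had 26 and 23 of 227 (28 to 53 called under the alternatives, with 28 without KO replicate 2 or 3 and 30 without KO replicate 1), and *Zfp513* fell from 17.6, 25.5 and 35.7 FPKM in WT to 2.15, 2.48 and 2.19 in KO.

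Of 17 tested genes within 1 Mb of *Lsm14b*, 3 fell and 1 rose (1 to 4 called under the alternatives, with 1 without KO replicate 1 and 2 without KO replicate 3, and 1 with all 12 libraries in the fit). *Taf4a*, a subunit of TFIID, fell from 23.4, 33.4 and 25.9 FPKM in WT to 3.73, 5.09 and 6.56 in KO, a change of -2.23 (SE 0.27, limma adjusted p = 0.000702). *Ss18l1* and *Slco4a1* fell by changes of -1.66 (a call lost under 3 of the alternative settings) and -0.93 (a call lost under 3 of the alternative settings), and *Arfgap1* rose by 0.99 (a call lost under 9 of the alternative settings). Of the 49 oogenesis factors that the study lists, all of which were tested, 19 were called higher and 7 lower, and 12 to 26 were called under the alternatives, lowest without an intensity trend. The study chose this list, so its count is not independent evidence of a direction.

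The most abundant transcripts of the WT RNP pool changed by different amounts. *Bcl2l10*, a BCL2 family gene specific to oocytes, was at 5347, 5266 and 5455 FPKM in the WT and 1849, 1776 and 1844 in the KO libraries. Its KO mean was 0.340 of the WT mean, far outside the spread, a change of -1.55 (SE 0.05, limma adjusted p = 5.84e-07). *Tubb4b* was at 2815, 2929 and 3409 FPKM in the WT and 3581, 3898 and 3554 in the KO libraries, a change of 0.27 (a call lost under 9 of the alternative settings), and *E330021D16Rik* at -0.29 (a call lost under 3 of the alternative settings). *Gm15698* was at 6811, 6312 and 5998 FPKM in the WT and 6806, 6864 and 6885 in the KO libraries, with a change of 0.11 (SE 0.05, limma adjusted p = 0.176), and *Rn45s*, the ribosomal RNA precursor, at 3439.9, 3902 and 4086 FPKM in the WT and 3065, 4516 and 4897 in the KO libraries.

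Called genes had shorter transcripts than the genes tested as a whole. The median annotated transcript length was 2246 bases for genes called higher, 2522 for genes called lower and 2806 for all tested, with a value for 99.3% of the genes. Genes were divided into 4 bins of equal size. In the bin with the longest transcripts 5.11% were called higher and 9.12% lower, against 13.7% and 12.2% in the shortest. GC content ran in opposite directions, at medians of 48.2% for genes called higher and 50.8% for genes called lower, against 49.9% overall. In the bin of lowest GC content 13% were higher and 9.16% lower, and in the highest 7.42% and 12.8%. The part of GC content and length in amplification or in the FPKM calculation was not tested.

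The change in the RNP pool was then set against that in the polysome pool. Of 10949 genes tested over all 12 libraries, 0.237% were called for the interaction of genotype and pool by limma, 17 with a higher change in the RNP pool and 9 with a lower one, against 1220 at an unadjusted p under 0.05. With the replicate number as a block, 11 were called. This block joins the libraries of 1 number across both pools and both genotypes, so pairing of the pools within a genotype was not tested. None was called when KO replicate 1, 2 or 3 was left out in both pools, so the number called depends on the fit and does not measure how often the pools differed. *Pnpla3*, *Zc3h6* and *Bcl2l10* were among those not called. *Zc3h6* was at 155, 141 and 149.9 FPKM in the WT and 9.92, 10.9 and 15.5 in the KO libraries of the polysome pool, close to its RNP values in each genotype, and the difference of the changes was -0.33 (SE 0.26, limma adjusted p = 0.693). *Fth1*, the ferritin heavy chain, was called, with 108, 102 and 97.4 FPKM in the WT and 256, 273 and 278 in the KO libraries of the RNP pool and 66.9, 61.1 and 73.6 FPKM in the WT and 72.3, 50.7 and 65.5 in the KO libraries of the polysome pool. Its RNP groups were separated and its polysome groups overlapped, with a difference of the changes of 1.49 (SE 0.20, limma adjusted p = 0.0204).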

How the data were processed

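The deposited table gives FPKM per gene and library. According to the authors, reads were trimmed, aligned to mm10 with TopHat2 2.0.13 and converted to FPKM with Cufflinks 2.2.1. Fold changes and p-values of the authors' own comparison (Cuffdiff) are held in the same table and were not used. The library kit and the upper sucrose concentration differ between the labels and the methods. Read strand is not given in the sources used here, so reads of overlapping genes cannot be told apart.

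Groups were taken from the sample labels. FPKM was transformed to log2(FPKM + 1), and genes with at least 1 FPKM in at least 3 of the 6 RNP libraries were kept. Genotypes were compared with limma 3.58.1 in R 4.3.3 (moderated linear model with an intensity trend, Benjamini-Hochberg threshold 0.05), and the pools with an interaction contrast over all 12 libraries, which share 1 estimate of the spread. The code was tested on simulated data. Tables and plots were made in Python 3.11.15 (numpy 2.4.6, pandas 2.3.3; plots in matplotlib 3.10.9). Gene positions, lengths and GC content come from GENCODE M21 (GRCm38), which matched 9862 of the 9931 genes tested. FPKM gives no counts, so no counting interval was computed.

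The members and lists were chosen with earlier results of these data known. Named genes are *Lsm14b* and *Lsm14a*, the 12 largest rises and falls among called genes with separated groups and a mean of at least 5 FPKM, the 10 genes with the highest WT mean, the key members and up to 3 largest rises and falls of each list, the 5 largest interaction differences in each direction and the cell markers. The *Fbxw* cluster was singled out after its values were seen. Alternatives changed the pseudocount (0.1, 5), the filter (none, 5 FPKM), the scaling (median, quantile), the trend, the libraries fitted, a replicate block and each replicate left out.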

Additional observations from a re-analysis of the deposited data

Results flagged for a closer look

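The change between genotypes differed between the pools for 26 genes by the limma interaction test, which treats all 12 libraries as independent, and the 5 with the largest difference in each direction follow. Differences are the RNP change minus the polysome change, on the log2(FPKM + 1) scale.

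*Tmsb4x*, a thymosin that sequesters actin monomers, was at 0, 0 and 1.09 FPKM in the WT and 3.60, 8.12 and 10.3 in the KO libraries of the RNP pool and 15.5, 12.2 and 6.89 FPKM in the WT and 0, 1.95 and 1.67 in the KO libraries of the polysome pool. It was higher in KO in the RNP pool and lower in the polysome pool, with a difference of 5.20 (SE 0.76, limma adjusted p = 0.0204), at low levels and with several libraries at 0. *Cetn2* was at 53.05, 42.7 and 34.1 FPKM in the WT and 115, 104 and 103 in the KO libraries of the RNP pool and 227, 213 and 225 FPKM in the WT and 164, 165 and 157 in the KO libraries of the polysome pool, again opposite in direction, with a difference of 1.76 (SE 0.21, limma adjusted p = 0.0109). *Sdhaf4*, an assembly factor of succinate dehydrogenase, was at 116, 92.3 and 94.1 FPKM in the WT and 182, 134.96 and 155 in the KO libraries of the RNP pool and 89.6, 78.4 and 120.0 FPKM in the WT and 40.8, 57.6 and 42.01 in the KO libraries of the polysome pool, with a difference of 1.65 (SE 0.27, limma adjusted p = 0.0243). *Atp5g1* differed by 1.69 (SE 0.25, limma adjusted p = 0.0204), with a polysome level of 57.3, 56.5 and 49.7 FPKM in the WT and 57.1, 52.5 and 34.4 in the KO libraries, where the genotypes overlapped. *Fth1* differed by 1.49 (SE 0.20, limma adjusted p = 0.0204).

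In the other direction, 3 of the 5 genes were not called in the RNP pool itself. *1700030A11Rik* was at 6.14, 6.38 and 9.02 FPKM in the WT and 8.34, 6.71 and 8.40 in the KO libraries of the RNP pool and 0, 0 and 0 FPKM in the WT and 7.40, 10.9 and 10.6 in the KO libraries of the polysome pool, with overlapping RNP groups, polysome WT libraries listed at 0 and a fitted difference of -3.27 (SE 0.46, limma adjusted p = 0.0204). *Mocs1*, of molybdenum cofactor synthesis, differed by -3.41 (SE 0.59, limma adjusted p = 0.0346), with an RNP change of -0.29 (SE 0.28, limma adjusted p = 0.507). *Zfp784* differed by -2.97 (SE 0.45, limma adjusted p = 0.0204), with an RNP change of -0.54 (SE 0.26, limma adjusted p = 0.179). *Wdyhv1*, a glutamine amidase, differed by -5.37 (SE 0.81, limma adjusted p = 0.0204) and *Zfp7* by -4.26 (SE 0.72, limma adjusted p = 0.0288). Both were called lower in the RNP pool and stood below 15 FPKM in every library. With the replicate number as a block, which joins the libraries of 1 number across both pools and both genotypes, 11 genes were called. *Zfp7*, *Mocs1*, *Zfp784* and *Sdhaf4* were not among them. No gene was called by limma without KO replicate 1, 2 or 3, where 880, 882 and 852 had an unadjusted p under 0.05. Where a group is listed at 0, the fitted difference depends on the pseudocount.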

How the results depend on the processing

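The count of genes called in the RNP pool was 2057, and over the 9 alternatives that kept all replicates it ranged from 1505 (all 12 libraries in the fit) to 2173 (median rescaling). Leaving out 1 replicate gave 1255 to 1911 genes, of which 538 to 1053 were higher and 707 to 870 lower. The calls without KO replicate 1, 2 or 3 shared 1231, 1236 and 1265 genes with the 2057. The interaction count of 26 became 6 without an intensity trend, 11 with the replicate block and 0 to 26 with 1 replicate left out. It was 12 without WT replicate 2 and 0 without KO replicate 1, 2 or 3, where limma gave 880, 882 and 852 genes at an unadjusted p under 0.05. The cause was not tested. Of 210 named called genes other than *Lsm14b*, 121 kept the call under every alternative that tested them, and no named gene reversed. Fits without an intensity trend lost 54 of these calls, and fits without a KO replicate lost 40 to 50. *Lsm14b* stayed called under all of them. In total 767 genes were called in the main setting and under every alternative.

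The labels link same-numbered WT and KO libraries only by that number. Their deviations correlated at 0.014, 0.013 and 0.007, against -0.024 to 0.010 for libraries of different numbers. WT replicate 3 correlated at 0.0073 with KO replicate 2 and at 0.0070 with its own number. Deviations within a group of 3 sum to 0, so these values cannot show whether libraries of 1 number were handled together. The replicate block gave 1799 calls. Depth, estimated from FPKM steps alone, limits the statements on genes below 5 FPKM, and a value of 0 in the table may be a failed estimate.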

Other observations

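Shares of calls varied between chromosomes, against 10.5% higher and 10.2% lower over all genes tested. Of 318 tested genes on the X chromosome, 48 were called higher and 21 lower (15.1% and 6.604%). On chromosome 9, which holds the *Fbxw* cluster, 80 of 572 were higher and 60 lower (13.99% and 10.49%). Chromosome 2, which holds *Lsm14b*, had 59 higher and 88 lower of 752 (7.85% and 11.7%). Its share of falls was close to those of chromosomes 11 and 15 (11.8% and 11.7%). No test was made of these counts.

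A single gene, *Tmem51*, was listed at 0 in all 3 KO libraries of the RNP pool and at 5 FPKM or more in all 3 WT libraries, and 0 genes showed the opposite pattern.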
